A study of Mus musculus with 38 samples.

Results

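The H3K27ac regions gained in IκBα-KO mESCs were the merged regions that the peak caller epic2 found in 3 of 3 IκBα-KO lists and 0 of 3 IκBα-WT lists. The 6 deposited H3K27ac lists were joined wherever calls shared 1 bp, which gave 49887 merged regions. Of these, 674 met the rule on lists. After 16 on the sex chromosomes and 85 in 3 stretches with unequal input between the genotypes (chromosome 2 from 165 to 171 Mb, chromosome 8 from 40 to 129 Mb and chromosome 12 from 103 to 119 Mb) were left out, 573 gained regions remained, or 1.23% of the 46774 merged regions outside those stretches. The mirrored rule gave 1505 lost regions (3.22%), and 44696 regions were neither. The members were chosen by their H3K27ac calls, so their H3K27ac is described here without a test.

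All libraries came from ES-E14TG2a mouse embryonic stem cells, a feeder-independent line, kept in serum with LIF and taken at 0 h, before differentiation. IκBα-KO cells carried a CRISPR-Cas9 disruption of Nfkbia, the gene of the NF-κB inhibitor IκBα, made with 2 guide RNAs. IκBα-WT cells had received non-targeting guides. Each genotype had 3 independent clones, each 1 library per mark, so the spread between replicates is a spread between clones. The series profiled 5 marks (30 ChIP libraries), and 1 input per genotype served all 3 replicates of a mark; H3K27ac and H3K4me1 used the same input pair. For H3K27ac and H3K4me1 the sample labels give a single antibody, whereas the study's methods name different ones. The H3K27ac lists held 44977 to 57645 regions over 380 to 419 Mb, and all 3 IκBα-KO lists held fewer regions and covered more sequence than any IκBα-WT list. H3K27ac was called over the whole promoter of Pou5f1, Sox2 and Nanog in 6 of 6 lists. It was called over part of that of the trophectoderm gene Cdx2 in 6 of 6 lists, and over none of those of Afp, Alb and Myod1, nor at the annotated 5′ end of Esrrb.

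Acetylation of lysine 27 on histone H3 marks active promoters and enhancers. Enhancers also carry H3K4me1, and those that lack H3K27ac while holding H3K4me1 are termed primed, or poised where H3K27me3 is present. Active promoters carry H3K4me3, Polycomb complexes deposit H3K27me3, and H3K9me3 marks heterochromatin, repeats and the methylated copy of imprinted control regions.

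The sequences below are shown because they contrast members that lay on CpG-rich and CpG-poor DNA. Each is 300 bases of the GRCm38 plus strand, read from the RefSeq assembly and centred on the highest H3K4me3 summit of the IκBα-KO lists, or on the middle of the shared H3K27ac core where there was no H3K4me3 peak. Capitals mark CG dinucleotides. The first is chr6:30738144-30738443, inside the imprinted gene Mest. The next, chr12:66284662-66284961 and chr12:66282824-66283123, are from neighbouring members by Rpl10l, a retrogene that encodes a ribosomal protein paralogue. The fourth, chr19:22139055-22139354, lies at the promoter of the cation channel gene Trpm3, and the fifth, chr17:48931758-48932057, at that of the synaptic adhesion gene Lrfn2. The last 3 had no H3K4me3 peak and come from introns of the autophagy gene Atg14 (chr14:47551751-47552050) and the kinesin receptor gene Ktn1 (chr14:47657151-47657450), and from a lncRNA gene near the zinc-finger gene Zfp825 (chr13:74456851-74457150).
Mest: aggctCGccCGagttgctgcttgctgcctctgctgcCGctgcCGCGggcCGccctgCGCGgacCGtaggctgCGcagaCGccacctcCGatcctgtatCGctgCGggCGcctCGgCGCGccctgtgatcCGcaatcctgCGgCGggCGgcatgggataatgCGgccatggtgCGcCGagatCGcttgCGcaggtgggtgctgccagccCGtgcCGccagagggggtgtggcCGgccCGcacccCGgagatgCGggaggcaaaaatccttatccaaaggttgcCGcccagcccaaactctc
Rpl10l, promoter member: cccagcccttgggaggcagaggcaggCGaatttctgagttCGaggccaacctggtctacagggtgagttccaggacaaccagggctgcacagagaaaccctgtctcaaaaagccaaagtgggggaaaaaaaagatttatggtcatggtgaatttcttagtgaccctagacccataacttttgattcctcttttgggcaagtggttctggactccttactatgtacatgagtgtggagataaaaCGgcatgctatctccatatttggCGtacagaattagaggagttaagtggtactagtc
Rpl10l, distal member: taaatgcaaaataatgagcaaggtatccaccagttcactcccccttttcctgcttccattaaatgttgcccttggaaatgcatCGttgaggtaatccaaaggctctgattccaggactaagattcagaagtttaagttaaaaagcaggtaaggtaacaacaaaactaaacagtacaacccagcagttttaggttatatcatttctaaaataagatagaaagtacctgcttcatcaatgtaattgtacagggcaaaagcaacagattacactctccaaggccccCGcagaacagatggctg
Trpm3: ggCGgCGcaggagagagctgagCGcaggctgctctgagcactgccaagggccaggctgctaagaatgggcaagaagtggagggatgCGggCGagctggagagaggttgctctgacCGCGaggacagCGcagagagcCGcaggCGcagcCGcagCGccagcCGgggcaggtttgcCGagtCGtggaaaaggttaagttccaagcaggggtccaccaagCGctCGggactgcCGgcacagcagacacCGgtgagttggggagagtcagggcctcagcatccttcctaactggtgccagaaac
Lrfn2: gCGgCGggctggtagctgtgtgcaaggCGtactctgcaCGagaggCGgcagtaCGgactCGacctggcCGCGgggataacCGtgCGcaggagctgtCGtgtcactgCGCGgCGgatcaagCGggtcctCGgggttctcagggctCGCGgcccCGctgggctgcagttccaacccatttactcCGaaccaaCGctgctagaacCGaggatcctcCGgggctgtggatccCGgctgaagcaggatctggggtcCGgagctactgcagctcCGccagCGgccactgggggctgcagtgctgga
Atg14: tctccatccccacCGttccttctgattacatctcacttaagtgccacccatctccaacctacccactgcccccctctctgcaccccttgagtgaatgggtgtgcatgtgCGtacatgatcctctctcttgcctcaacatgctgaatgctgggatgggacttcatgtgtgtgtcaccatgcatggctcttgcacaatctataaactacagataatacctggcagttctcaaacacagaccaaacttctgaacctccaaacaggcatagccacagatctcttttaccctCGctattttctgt
Ktn1: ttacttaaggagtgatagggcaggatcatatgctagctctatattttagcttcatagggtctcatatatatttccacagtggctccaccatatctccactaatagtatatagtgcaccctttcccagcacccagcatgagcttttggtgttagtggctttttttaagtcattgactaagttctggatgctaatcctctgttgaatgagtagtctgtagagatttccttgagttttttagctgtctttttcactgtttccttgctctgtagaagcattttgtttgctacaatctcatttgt
Zfp825: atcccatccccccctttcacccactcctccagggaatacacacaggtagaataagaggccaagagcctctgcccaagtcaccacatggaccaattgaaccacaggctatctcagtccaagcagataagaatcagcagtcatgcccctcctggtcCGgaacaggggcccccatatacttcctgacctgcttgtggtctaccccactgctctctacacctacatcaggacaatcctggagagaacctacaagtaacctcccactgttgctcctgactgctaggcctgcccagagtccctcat

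The Mest window held 34 CG dinucleotides at 70.3% GC, Lrfn2 held 28 at 67.3% and Trpm3 held 19 at 64.7%. The windows of the Rpl10l members held 4 and 2, and 47.3% of the first was masked as repeat. Atg14 held 3, Zfp825 held 1 and Ktn1 held 0. CpG-poor DNA was the rule among the gained regions. In the 1000 bases around the middle of each region, the median was 9 CG dinucleotides, against 9 for lost and 10 for other H3K27ac regions. Windows with GC over 50% and an observed-to-expected CG ratio over 0.6 made up 0.698% of gained regions (4 of 573), 6.05% of lost regions and 6.20% of the others. Median GC was 45.7% (5th to 95th percentile 37.8% to 53.1%), and the median share masked as repeat was 16.8%, against 17.1% and 17.4%.

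Gained regions were distal. Their middle lay in an intron of a protein-coding gene in 286 cases (49.9%, 95% Wilson interval 45.8% to 54.0%) and between genes in 210 (36.6%, 32.8% to 40.7%). The intron share was 35.7% for lost and 46.6% for other regions, and the share between genes was 45.8% and 32.5%. A lncRNA gene held 34, an untranslated exon 23 and a coding exon 2. A promoter, taken as the 5000 bp before and the 100 bp after the annotated start of a protein-coding gene, held 18. In all, 40 members (6.98%) touched a promoter, against 12.8% of lost and 23.7% of other regions. The median distance from the middle to the nearest protein-coding start was 40436 bp, shorter than the 63320 bp of lost regions and longer than the 31376 bp of the others, and 44.9% lay more than 50 kb away. Wide regions touch more promoters by their width alone, and the median widths were 5800 bp for gained, 4400 bp for lost and 6200 bp for other regions.

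**Figure D1:**
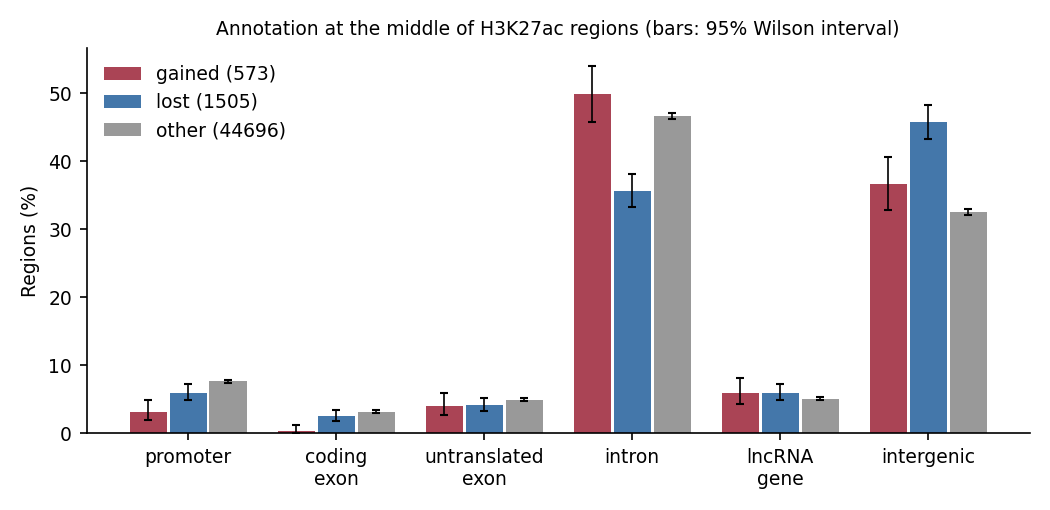
Share of H3K27ac regions (%, y axis) by the GENCODE annotation at their middle, for 573 gained, 1505 lost and 44696 other regions; error bars are 95% Wilson intervals. Promoters held 3.14% of the gained regions, 5.91% of the lost and 7.64% of the others. Introns held 49.9% of the gained regions, 35.7% of the lost and 46.6% of the others.

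The gained regions were weakly enriched. Widths ran from 1000 to 43600 bp, with quartiles at 4400 and 7600 bp. The core, that is the bases covered in all 3 IκBα-KO lists, had a median of 2600 bp, and in 17 members the 3 calls shared no base. A median member drew 159, 169 and 155 ChIP reads in IκBα-KO replicates 1, 2 and 3 against 107, 112 and 119 input reads. The median ratio of ChIP to input reads was 1.48, 1.51 and 1.30, whereas regions called in 6 of 6 lists reached 1.92, 1.92 and 1.66 in the same libraries. These ratios are not scaled for depth. Replicate 3 was lowest in both sets, whereas by the log2 ratio of the peak caller the medians at gained regions were 0.48, 0.50 and 0.49. The lists give no read count where nothing was called, so IκBα-WT has no value at these regions, and the absence of a call is not an absence of signal.

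Values on both sides of the rule were close. The 892 regions with 1 IκBα-WT call had median ratios of 1.53, 1.54 and 1.34 in IκBα-KO, and the regions called in 2 of 3 IκBα-KO lists and no IκBα-WT list (1049) had 1.48, 1.49 and 1.28. Where the single IκBα-WT call was in replicate 1, 2 or 3, its median ratio there was 1.34, 1.37 or 1.36. Gaps to IκBα-WT calls were measured for gained regions only, so how they compare with other places in the genome was not tested. The median gap to the nearest IκBα-WT call was 4000 bp (quartiles 1600 and 11000), 313 members (54.6%) lay within 5 kb of one and 34 (5.93%) more than 50 kb from any.

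**Figure D2:**
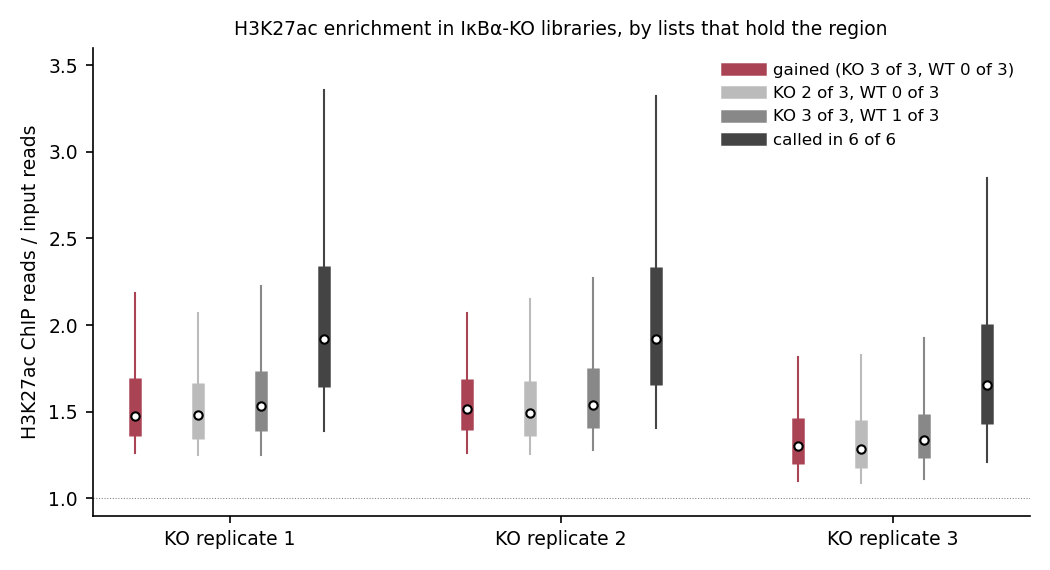
H3K27ac ChIP reads over input reads (y axis) in each IκBα-KO replicate (x axis), for gained regions and 3 sets defined by how many lists held them; circles are medians, thick bars quartiles and thin lines the 5th to 95th percentiles over regions. Gained regions had medians of 1.48, 1.51 and 1.30, close to both sets just outside the rule and below the regions called in 6 of 6 lists.

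Of the 10 members with the highest lowest ratio, 6 are described here. Next to Zfp825 (chr13:74456201-74457600) the ratios were 3.27, 3.41 and 3.32, from 98, 116 and 83 ChIP reads, with an IκBα-KO input 0.41 higher on the log2 scale under the H3K4me1 call there. In an intron of 4930522L14Rik (chr5:109744401-109745600) they were 3.83, 4.04 and 2.61, over 23 input reads in each list. A region 48719 bp from the start of Lep, which encodes leptin (chr6:29010801-29012200), had 3.19, 3.00 and 2.52. In Atg14 (chr14:47545201-47555200) the ratios were 2.81, 2.84 and 2.31, from 362, 347 and 178 ChIP reads. Input there was 15, 14.2 and 14.8 reads per kb, against medians of 28.3, 28.3 and 28.5 over all members. ChIP was 42.1, 40.3 and 34.2 reads per kb, against medians of 42.6, 42.9 and 36.8. Mest, described below, reached 2.30, 2.42 and 2.14 and Ktn1 2.50, 2.90 and 2.08. At Ktn1 input was 14.8, 14.7 and 17.7 reads per kb and ChIP 36.9, 42.6 and 36.7. The high ratios at Atg14 and Ktn1 thus went with low input, and ChIP reads per kb were below the median of members in every library. The ratios of these 6 members all lay above the median of regions called in 6 of 6 lists in the same library. They were picked for high ratios, so this is no separate result.

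Most gained regions were already marked in IκBα-WT. At 417 of 573 members (72.8%, 69.0% to 76.3%) H3K4me1 was called in at least 2 of 3 IκBα-WT lists, against 79.1% of lost and 82.5% of other regions. H3K27me3 was present at 188 (32.8%, 29.1% to 36.8%) against 26.0% and 32.7%. H3K9me3 was present at 78 (13.6%) against 21.6% and 21.3%. H3K4me3 was rare, at 11 members (1.92%) against 10.4% and 22.1%. H3K4me1 alone was the most frequent state (228 members, 39.8%), and 99 members (17.3%) held none of the 4 marks. H3K4me1 with H3K27me3 and no other mark came second (135, 23.6%, against 14.8% of lost and of other regions). The pair with H3K4me3 added was at 1.40% of members, against 8.57% of lost and 9.87% of other regions. With H3K9me3 added it was at 2.44%, against 1.40% and 3.06%. All 4 marks together were at 0.598% of lost and 2.82% of other regions. The 23.6% is therefore not the share of all members with both marks, and no excess of that pair can be read from it. H3K9me3 alone marked 25 members (4.36%, against 11.8% of lost and 4.15% of other regions), and H3K27me3 alone 23 (4.01%, against 0.465% and 1.93%).

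H3K4me1 was called at more of the gained regions in IκBα-KO. The share of members with a call was 72.9%, 74.2% and 73.1% in IκBα-WT and 86.9%, 87.8% and 89.2% in IκBα-KO, a mean difference of 14.5 percentage points with SDs of 0.661 and 1.14 points (n = 3 each). The genotypes did not overlap. Over the other H3K27ac regions the means were 82.5% and 82.0%, and over lost regions 78.3% and 65.0%. By consensus calls, 415 members held H3K4me1 in both genotypes, 92 in IκBα-KO alone, 2 in IκBα-WT alone and 64 in neither. Reading the mark at the middle of the member, which takes out the width, gave 63.0% in IκBα-WT and 77.5% in IκBα-KO. H3K4me1 was in 3 of 3 IκBα-KO and 0 of 3 IκBα-WT lists at 34 members (5.93%), against 0.714% of all merged regions, and 1 member (0.175%) had the opposite pattern, against 0.983%.

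The calls of both marks rest on the same inputs. Across the 416 H3K4me1 regions that overlapped a member and were called in 6 of 6 lists, the log2 ratio of IκBα-KO to IκBα-WT input, centred on the median of all such regions, had a median of -0.01 (quartiles -0.13 and 0.07), against 0.00 (-0.10 and 0.10) at the 41798 that did not overlap. These regions leave out the members where H3K4me1 was called in IκBα-KO alone, so the part of input in those calls was not tested. Input differed more at single members, as given beside them.

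**Figure D3:**
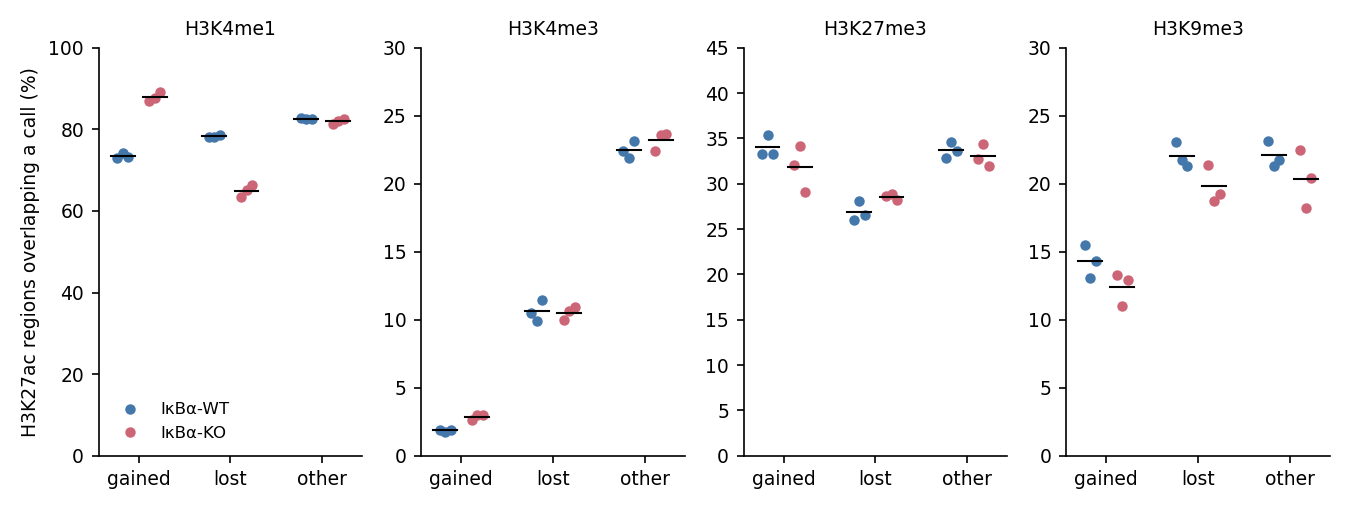
Share of gained, lost and other H3K27ac regions that overlapped a call of H3K4me1, H3K4me3, H3K27me3 or H3K9me3 (%, y axis, a different scale in each panel); each point is 1 library and each line the mean of 3. At gained regions H3K4me1 lay between 72.9% and 74.2% in IκBα-WT and between 86.9% and 89.2% in IκBα-KO.

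H3K4me1 read counts were then compared with edgeR's quasi-likelihood test across all H3K4me1 regions called in 6 of 6 lists whose shortest covered length was at least 0.8 of the longest. This test does not use the H3K27ac data. The tested regions were not limited to places where a member could lie. They took in the sex chromosomes and the left-out stretches of unequal input, so the shares of all tested regions include these. How far such regions shaped those shares was not tested. Of 10959 regions tested, 69 overlapped a member. At a Benjamini-Hochberg adjusted p below 0.05, 35 of these 69 (50.7%) were higher in IκBα-KO, against 23.4% of all tested, and 4 (5.80%) were lower, against 20% of all tested. The median log2 fold change was 0.09 at members and -0.005 over all, and 50 of 69 were positive. With the length limit dropped and covered length entered as an offset, 48 of 416 regions (11.5%) were higher, against 7.46% of 44625, and 0 were lower, against 0.771%. At an unadjusted p below 0.05 the counts among the 416 were 117 and 4. The share over all tested regions was not counted at that threshold, so these counts have no background. The median log2 fold change in this fit was 0.12 at members and 0.05 over all. Most members overlapped no region of like length, so the first counts speak for a minority of them.

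**Figure D4:**
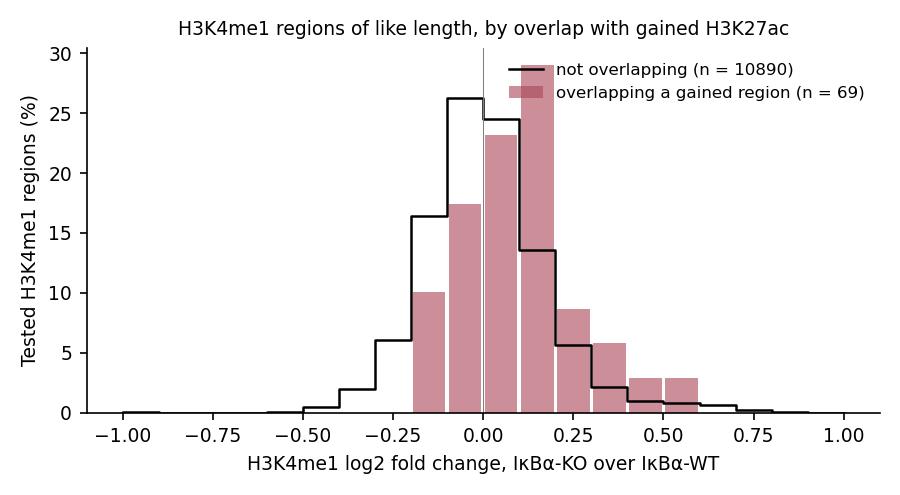
Distribution of H3K4me1 log2 fold changes (x axis, IκBα-KO over IκBα-WT, bins of 0.1) as a share of tested regions (%, y axis), for 69 regions that overlapped a gained H3K27ac region (bars) and the tested regions that did not (line). The largest share of the overlapping regions, 29.0%, fell between 0.1 and 0.2.

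The changes in H3K4me1 at single members were moderate. At chr13:59927201-59929400, between genes and nearest to Tut7, which encodes a terminal uridylyltransferase, normalised counts per library size (CPM) were 5.64, 6.71 and 4.97 in IκBα-WT and 8.41, 9.11 and 7.98 in IκBα-KO. The log2 fold change was 0.56 (SE 0.11, adjusted p = 9.69e-05, edgeR), and the IκBα-KO input there was 0.45 lower on the log2 scale. At chr14:78436001-78439800, 98507 bp from the start of Akap11, which encodes a kinase anchoring protein, CPM were 10.1, 12.3 and 10.9 against 15.3, 16.9 and 15.4, a log2 fold change of 0.52 (SE 0.08, adjusted p = 3.55e-06, edgeR). In an intron of the phosphatase gene Ppp1cb (chr5:32467001-32470800) they were 14.8, 15.6 and 13.7 against 19.6, 20.4 and 19.7, with an input log2 ratio of -0.25. No IκBα-WT library reached an IκBα-KO library at any of these 3 regions. Regions in Arid4b (nearest start Ggps1) and by the spindle gene Nusap1 (input log2 ratio -0.22) rose by 0.41 and 0.39. These H3K4me1 regions were 11400 and 25400 bp wide and reached beyond the member, so where within them the reads rose cannot be told. The 4 that fell did so by 0.18 (by Eln, the elastin gene), 0.14 (Tspan4), 0.12 (Mex3d) and 0.11 (Kcp), and in these the H3K4me1 region was 11000 to 45200 bp wide and much of it lay outside the member.

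H3K27me3 and H3K9me3 calls at gained regions overlapped between the genotypes. H3K27me3 was found at 33.3%, 35.4% and 33.3% of members in IκBα-WT and 32.1%, 34.2% and 29.1% in IκBα-KO. H3K9me3 was found at 15.5%, 13.1% and 14.3%, and at 13.3%, 11% and 12.9%. The difference in means, IκBα-KO minus IκBα-WT, was -1.92 percentage points for H3K9me3, against -1.71 at other and -2.24 at lost regions. For H3K27me3 it was -2.21 points, against -0.67 and 1.68. In edgeR, 26 of 2025 tested H3K27me3 regions overlapped a member. Here too, the tested regions took in the sex chromosomes and the left-out stretches, where no member could lie. Of these, 3 were higher (11.5%, against 15.8% of all) and 6 lower (23.1%, against 19.3%), so the shares were near the background. With the length offset, 1 of 179 was higher (0.559%, against 0.681%) and 5 lower (2.79%, against 2.56%). Only 1 of 3156 tested H3K9me3 regions overlapped a member, and it was not called, against 6.91% higher and 7.38% lower over all; its unadjusted p was below 0.05, and DESeq2 did not call it either. With the offset, 0 of 62 were higher (against 0.322%) and 1 lower (against 0.11%). At an unadjusted p below 0.05, 6 of the 62 were higher and 3 lower, and the share over all was not counted at that threshold.

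The H3K27me3 regions called were 12200 to 91000 bp wide, so most of each lay outside the member, apart from those on chromosome 17 and by Ccdc60, and where within them the reads changed cannot be told from these counts. In an intron of Lypd4 (chr7:24864201-24879000) CPM were 246, 261 and 263 in IκBα-WT and 195, 205 and 198 in IκBα-KO, and the region fell by 0.37 on the log2 scale (SE 0.07, adjusted p = 8.23e-07, edgeR). The calls on the member itself (chr7:24864001-24866800) had 66.1, 71.9 and 56.7 reads per kb in IκBα-WT over 1600 to 1800 bp and 71.1 in IκBα-KO replicate 2 over 1800 bp, which is no fall; in IκBα-KO replicates 1 and 3 the call reached beyond the member and was 12800 and 12000 bp long. Across the 91000 bp H3K27me3 region at Esrrb, a naïve pluripotency factor, they were 1457, 1423 and 1459 against 1359, 1265 and 1295, and the region fell by 0.15 (SE 0.04, adjusted p = 0.000789, edgeR). The region by Ttll6 fell by 0.19, and those by Ccdc60 and Kcp by 0.20 and 0.16. Regions by Tifab, over Lrrc32 and on chromosome 17 at 27.3 Mb rose by 0.21, 0.18 and 0.21. Input under the calls on chromosome 17 was also higher in IκBα-KO, at 37.4, 37.5 and 38.8 reads per kb against 33.3, 33.3 and 32.5. These are raw reads, not scaled for depth. They were higher in IκBα-KO at Tifab too (20.7, 21.1 and 20.6 against 18.1, 18.4 and 18.8). The same held at Esrrb, where H3K27me3 fell (23.7, 25 and 24.6 against 19.3, 20.2 and 18.1). At Lrrc32 they overlapped (19.2, 19.8 and 19.8 against 20.3, 19.6 and 19.5). The part of input in these results was not tested.

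H3K4me3 was added at few members. The share with a peak was 1.92%, 1.75% and 1.92% in IκBα-WT and 2.62%, 2.97% and 2.97% in IκBα-KO, a mean difference of 0.989 percentage points. The other H3K27ac regions had 22.5% and 23.2% on average, a difference of 0.739 points. A peak in 3 of 3 IκBα-KO and 0 of 3 IκBα-WT lists was found at 4 members (0.698%, against 0.336% of all merged regions) and the opposite at 0 (against 0.1%). The 4 were Mest, the Rpl10l promoter, an intron of the calcium sensor gene Stim1 and the wide region on chromosome 17. The same count for H3K27me3 was 1 (0.175%, against 0.353%) with 3 in the opposite direction (0.524%, against 0.554%), and for H3K9me3 it was 0 (against 0.199%) with 4 in the opposite direction (0.698%, against 0.552%). Those numbers are small, and the members behind them were named after their values were seen.

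At Mest (chr6:30728201-30751200, core 17600 bp), a paternally expressed imprinted gene, all 5 marks differed in their calls. H3K27ac was called in IκBα-KO with 1651, 1504 and 1289 ChIP reads against 719, 622 and 602 input reads, and the nearest IκBα-WT call was 33200 bp away. H3K4me1 was called in 3 of 3 IκBα-KO lists at 72.9, 73.8 and 72.3 reads per kb of called sequence and in 0 of 3 IκBα-WT lists. H3K9me3 had the reverse pattern, with 91.0, 91.4 and 80.5 reads per kb in IκBα-WT and no call in IκBα-KO. H3K4me3 peaks stood in 3 of 3 IκBα-KO lists, the highest with a fold enrichment of 11.2, 16.0 and 16.0, and in 0 of 3 IκBα-WT lists. The CpG-rich sequence printed above holds the summit in replicates 2 and 3. H3K27me3 covered 10200, 10600 and 9600 bp in IκBα-KO at 52.5, 55.4 and 60.4 reads per kb, and 3600 bp in IκBα-WT replicate 2 alone, at 23.1. Apart from that 1 call, the pattern was the same in every clone. The member also reached the 3′ part of Copg2.

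A second imprinted locus showed part of this pattern. The member at chr15:72809201-72811000 lay in an intron of Trappc9 and overlapped the imprinted lncRNA gene Peg13 (chr15:72805600-72810324, minus strand). H3K27ac ratios were 1.76, 2.05 and 1.51. H3K4me1 was called in IκBα-KO alone, at 59.0, 53.2 and 57.3 reads per kb. H3K9me3 was called in 6 of 6 lists, over 14800, 15000 and 15400 bp at 103, 96.9 and 87.8 reads per kb in IκBα-WT and over 10400, 7600 and 8200 bp at 57.5, 54.5 and 54.5 in IκBα-KO. It was thus narrower and lower in every IκBα-KO clone, with no overlap between the genotypes, although input under these calls was higher in IκBα-KO (25.5 to 26.6 reads per kb against 20.7 to 21). H3K4me3 peaks were found in 2 of 3 IκBα-WT and 3 of 3 IκBα-KO lists, and H3K27me3 calls, at ratios of 1.17 to 1.58, in 3 of 3 IκBα-KO lists alone. Of 46 imprinted genes examined that are protein-coding and outside the stretches, 2 (Mest and Trappc9) were the nearest gene of a member (4.35%), against 2.55% of all 19846 protein-coding genes. Ppp1r9a, also imprinted, held a member in its body (chr6:5082201-5086200).

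**Figure D5:**
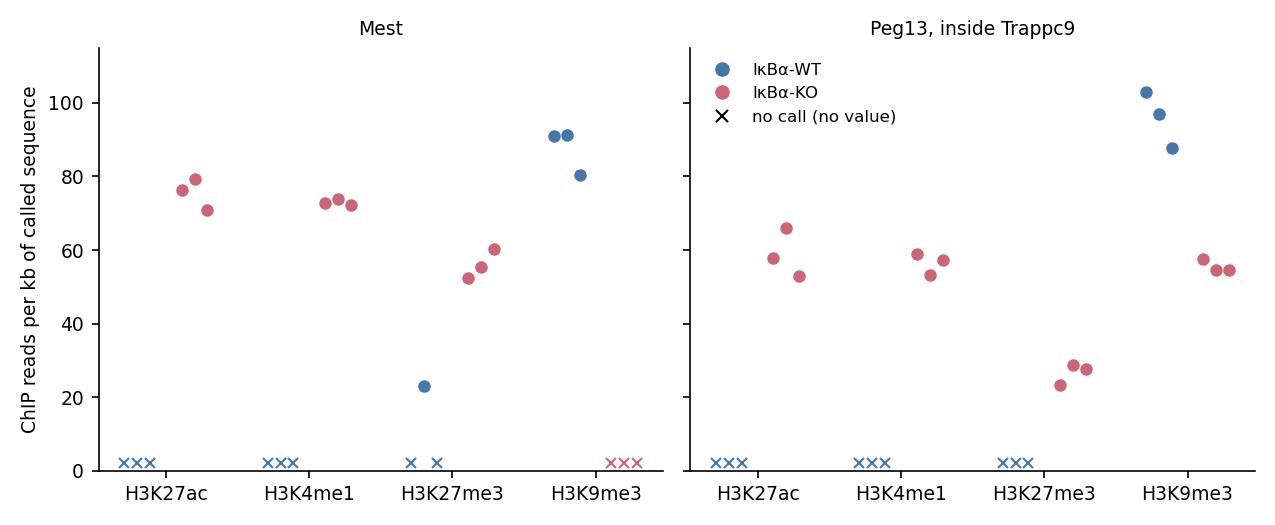
ChIP reads per kb of called sequence (y axis) for H3K27ac, H3K4me1, H3K27me3 and H3K9me3 calls that overlapped the gained regions at Mest and at Peg13; each dot is 1 library, and a cross near 0 marks a library with no call and thus no value. H3K9me3 at Mest was called in IκBα-WT alone, at 80.5 to 91.4 reads per kb, and H3K27ac and H3K4me1 in IκBα-KO alone.

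At Rpl10l, neighbouring members lay more than 50 kb from any IκBα-WT call. The promoter member (chr12:66284201-66286200) had H3K27ac ratios of 2.72, 2.09 and 1.62 and the distal member (chr12:66273801-66283400) 2.65, 2.34 and 2.13. Over the promoter member, H3K4me1 and H3K4me3 were called in 3 of 3 IκBα-KO and 0 of 3 IκBα-WT lists, with peak enrichments of 5.53, 6.12 and 4.50. H3K9me3 was called in IκBα-WT replicates 1 and 2, at 30.0 and 27.3 reads per kb, and in 0 of 3 IκBα-KO lists. Rpl10l has near-identical relatives in the genome, and how reads were shared among them was not examined. H3K9me3 was also called in 3 of 3 IκBα-WT and 0 of 3 IκBα-KO lists in an intron of Scfd2 (44.2, 31.4 and 36.4 reads per kb), at Cnksr3 (40.6, 29.4 and 28.6) and near Olfm4 (31.4, 29.3 and 21.4), each well below the level at Mest. The ratios to input were 1.48, 1.35 and 1.26 at Cnksr3 and 1.5, 1.41 and 1.03 at Olfm4, against 3.53, 1.57 and 2.22 at Scfd2. At Ufm1, H3K27me3 was called in IκBα-WT alone at 31.7, 30.9 and 32.2 reads per kb, and the H3K4me1 calls were wider in IκBα-KO (9000, 9400 and 9200 bp against 5600, 6000 and 6000 bp) but less dense (75.8, 76.7 and 70.3 reads per kb against 94.3, 89.3 and 90.7).

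Promoter members with H3K4me3 in 3 of 3 IκBα-KO lists otherwise held that mark in IκBα-WT too. At Trpm3 (chr19:22137001-22139400) H3K4me3 enrichment was 8.59, 6.74 and 8.81 in IκBα-WT and 6.77, 7.78 and 8.18 in IκBα-KO, with H3K27ac ratios of 1.65, 1.69 and 1.61. Between Ggt7 and Acss2, which encodes an acetyl-CoA synthetase, it was 8.46, 7.87 and 10.5 against 16.2, 15.4 and 18.6, without overlap, and the H3K27ac ratios were 2.52, 2.88 and 1.97. Lrfn2, Ccdc184, Jakmip1 and the lipid droplet gene Cidea carried H3K4me3 with H3K27me3 in both genotypes, a bivalent state, and their H3K27ac ratios ran from 1.07 to 1.71. Peak enrichments come from the authors' peak caller and were not tested.

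Of the gene lists examined, 3 held more than 10% of genes nearest to a member. From the Nodal, TGF-β and BMP list it was 5 of 28 (17.9%), from naïve pluripotency regulators 3 of 19 (15.8%) and from endoderm genes 2 of 13 (15.4%), against 2.55% of all genes. Genes set in large intergenic spaces are the nearest gene of more regions, and no allowance was made for this. Neuroectoderm had 1 of 17 (Olig2, a neural progenitor factor). The lists of NF-κB signalling (22 genes), LIF, STAT3 and FGF signalling (20), Wnt signalling (26), formative and primed epiblast (20), mesoderm (14), germline (20) and Polycomb and DNA methylation genes (29) had 0.

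The pluripotency genes concerned were transcription factors, and their members were distal. Tbx3 had members 296768 and 206768 bp from its start. The first (chr5:119370401-119382600) had ratios of 1.70, 1.60 and 1.35 and H3K4me1 in both genotypes. The second (chr5:119459801-119466000) had 1.45, 1.36 and 1.09, no mark in either genotype and no IκBα-WT call within 58000 bp. Tfcp2l1 had members 106056 and 199256 bp away, with ratios of 1.41, 2.18 and 1.30 and of 1.40, 1.58 and 1.37, both on H3K27me3 in both genotypes. The member in an Esrrb intron (chr12:86410201-86416600) shared a core of 200 bp, with ratios of 1.31, 1.58 and 1.27, and lay in the H3K27me3 region described above. None of these 5 exceeded the median of regions called in 6 of 6 lists in replicates 1 and 3.

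The signalling genes spanned receptors and transducers. A member in an intron of the receptor gene Bmpr2 had ratios of 1.43, 1.76 and 1.22, and one 226141 bp from the receptor gene Tgfbr2 had 1.76, 1.44 and 1.16. The transducer Smad3 held one in an intron (1.61, 1.52 and 1.41). H3K9me3 calls there were weak, with ratios of 1.30 and 0.904 in IκBα-WT replicates 1 and 2. In IκBα-KO they were 1.23 and 0.853 in replicates 1 and 3, and the remaining libraries had no call. Smad2 was nearest to 3, with ratios between 1.08 and 1.56. The one nearest to Id2, a target of BMP signalling, was 287461 bp away (1.75, 1.68 and 1.56). Of the endoderm genes, Hnf4a held an intronic member (1.71, 1.55 and 1.36) on H3K4me1 and H3K27me3, and Pdgfra one 199209 bp from its start (1.46, 1.62 and 1.35).

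A few genes were nearest to several members. The 573 members had 506 nearest genes by symbol (507 by identifier, since Jakmip1 is annotated under more than 1), of which 50 had 2 members and 7 had 3 or more. The adhesion gene Nectin1, the Groucho corepressor gene Tle3 and Vwa5b1 had 4 each, and Ajap1, Akap11, Smad2 and Zmiz1 had 3. The 10 members with the largest cores were Mest, the chromosome 17 region and those nearest to Plcb4, 4930535I16Rik, Sccpdh, Ptgfrn, Spen, Adamtsl1, Slc15a1 and Pkp4, whose cores ran from 6400 to 7600 bp and whose ratios lay between 1.07 and 1.67. At Vwa5b1 all lay within an interval on chromosome 4 between 138588401 and 138662400, and ratios ran from 1.25 to 1.91. Of the 4, 3 held H3K27me3 in IκBα-WT, and H3K4me1 was present at 3 in IκBα-WT and at 4 in IκBα-KO.

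Motif matches were counted in the same 1000-base windows. Fixed letter strings were searched on both strands. A KLF string (GGGTGTGG) was in 9.95% of gained windows and 9.58% of all 46771, a SOX string (CATTGTT) in 15.9% and 15.6%, an AP-1 string (TGANTCA) in 28.4% and 28.4%, a TEAD string (GGAATG) in 45.4% and 44.4%, and a GATA string (AGATAA) in 44.7% and 42.7%. A κB string (GGGNNTTCC) was in 11% (8.69% to 13.8%) and 13.2%, an E-box (CACGTG) in 11.2% and 13.2%, and a STAT string (TTCCNGGAA) in 2.27% and 3.29%. A ZFP57 string (TGCCGC) was in 9.25% and 12.2%. Its interval for gained windows (7.14% to 11.9%) lay below the share of all windows and overlapped the interval for lost windows (9.30% to 12.4%). The octamer (ATGCAAAT) was in 7.16% and 6.18%. The ESRRB string (TCAAGGTCA) was in 4.54% of gained (3.12% to 6.57%), 1.26% of lost (0.810% to 1.96%) and 3.36% of all windows, and was the only one of the 11 whose Wilson intervals for gained and lost regions did not overlap. The ESRRB interval for gained windows held the share of all windows, 3.36%, so the separation was from lost regions only. A match of letters is no evidence that a factor was bound.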

How the data were processed

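Histone marks were profiled by ChIP-seq in 3 IκBα-WT and 3 IκBα-KO clones. The authors trimmed 50-base single-end reads and called regions against input on GRCm38/mm10. H3K27ac, H3K4me1, H3K27me3 and H3K9me3 regions were deposited from epic2 (FDR below 0.05, bins of 200 bp) with raw ChIP and input read counts, p-values, a log2 ratio and a score; H3K4me3 peaks were deposited from MACS2 (2.2.7.1) with scores, a fold enrichment as a ratio and -log10 p and q. The aligner for H3K27ac is not given in the sources used here. Calls were made per library. Coordinates are 1-based. Members and gene lists were chosen with earlier results of these data known. Named members were the 10 with the largest cores, the 10 with the highest lowest ratio over at least 20 input reads, promoter members with H3K4me3 in all IκBα-KO lists, those nearest to a listed gene, and up to 5 per direction in each edgeR comparison; those with a mark in all lists of 1 genotype and none of the other were added after their values were seen. The 3 left-out stretches were also chosen from these data. These stretches and the sex chromosomes were kept in the edgeR fits. Counts in regions called in 6 lists were tested with edgeR (4.0.16, R 4.3.3, TMM), adjusted over all tested regions; DESeq2 (1.42.0) was an alternative. The edgeR scripts were tested on simulated data. Genes came from GENCODE M21 (21938 protein-coding). Reads in called regions numbered 22943091 to 28339766 per H3K27ac library. Wilson intervals (95%) cover counting error only.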

Additional observations from a re-analysis of the deposited data

How the results depend on the processing

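The number of gained regions depended on the rule. It was 395 with calls up to 1000 bp apart merged and 619 at FDR below 0.01, 1425 when every list was cut to its 44977 top-ranked regions (454 of the 573 members overlapped one), 1465 with 1 IκBα-WT list allowed, and 9285 when unmerged stretches of bases were counted (overlapping 556 members). Leaving out 1 library gave 858 (IκBα-WT replicate 3) to 1110 (IκBα-KO replicate 3), with 906 and 911 without IκBα-WT replicates 1 and 2 and 977 and 984 without IκBα-KO replicates 1 and 2; a rule on fewer lists admits more regions by construction. Under the alternatives that kept the length limit, H3K4me1 regions over members called higher were 24 to 35 of 69, against 35 in the main fit. The share of all tested regions was 16.2% to 23.6% in these alternatives. With covered length as an offset, 48 of 416 were higher (7.46% of all). With no length limit and no offset, where longer calls hold more reads, they were 137 of 416 (14% of all). Those called lower were 3 to 6 of 69 with the length limit kept (13.7% to 32.7% of all). They were 5 of 416 with no length limit (9.12% of all) and 0 of 416 with the length offset (0.771% of all). H3K27me3 regions called higher were 1 of 179 with the offset (0.681% of all). Those called lower were 19 of 179 with no length limit (5.44% of all). With 1 library left out they were 3 to 6 of 26 (13.9% to 17.9% of all), the 3 without IκBα-WT replicate 2. H3K9me3 regions called with no length limit were 3 higher (3.91% of all) and 3 lower (3.5% of all) of 62. Without a normalization factor 1 of 1 was higher (7.79% of all), and with the offset 1 of 62 was lower (0.11% of all). The cause of these shifts was not tested. A replicate block left the counts at 35 and 4 for H3K4me1, 3 and 6 for H3K27me3 and 0 and 0 for H3K9me3. The deviations of same-numbered libraries from their group means correlated at -0.003 to 0.11, so the numbers were not taken as pairs. The difference in H3K4me3 stayed between 0.931 and 1.11 percentage points. The share of members with a mark in IκBα-WT fell with stricter overlap. In 3 of 3 lists it was 64.9% for H3K4me1, 23.9% for H3K27me3 and 10.3% for H3K9me3; with at least 50% of the member covered 49.2%, 19.4%, 3.32% and, for H3K4me3, 0.175%; over the shared core 26.1% for H3K27me3 and 7.91% for H3K9me3; and at the middle of the member, an alternative chosen after seeing the data, 63.0%, 19.5%, 4.01% and 0.524%. With 1 IκBα-WT library left out and both others required it was 67.4% to 67.9%, 26.2% to 27.9% and 10.8% to 12.2%, and 1.57% to 1.75% for H3K4me3. H3K27ac at the members has no IκBα-WT count, so no fold change can be given for it.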

Other observations

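The widest member, chr17:27307201-27350800, had a core of 41800 bp, more than any other, and the lowest mean ratio among the members named. ChIP reads were 2560, 2576 and 2202 in IκBα-KO replicates 1, 2 and 3 over 2125, 2125 and 2056 input reads, which gave ratios between 1.07 and 1.21. Input there was 48.7, 48.7 and 49.2 reads per kb, against a median of 28.3 to 28.5 over all members. Input was also high under the H3K4me1 calls of IκBα-WT in the same interval, at 46.7 and 47.4 reads per kb in the libraries with a call, replicates 1 and 2. H3K27me3 over this member and its neighbour (chr17:27290201-27351000) was 1230, 1138 and 1121 CPM in IκBα-WT and 1354, 1350 and 1328 in IκBα-KO, a log2 fold change of 0.21 (SE 0.04, adjusted p = 1.86e-06, edgeR). H3K9me3 was called in 6 of 6 lists at 120, 106 and 106 reads per kb in IκBα-WT and 99.8, 91.9 and 83.5 in IκBα-KO. Input under those H3K27me3 calls was 33.3, 33.3 and 32.5 reads per kb in IκBα-WT and 37.4, 37.5 and 38.8 in IκBα-KO, and under the H3K9me3 calls 42.5, 42.4 and 42.7 against 52.3, 53.0 and 52.2. Input reads here are not scaled for depth, and the part of the raised input in these calls was not tested.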
